A study of Mus musculus with 4 samples.

Results

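The genes described here build and process the lipids of the epidermal permeability barrier, from the sphingoid base to the acylceramides of the cornified layer. They were a named list of 45 genes, and all 45 had a row on the arrays that carried their symbol alone, out of 22180 genes tested. A gene with several such rows was read from its brightest row on average. Cultured primary keratinocytes of 1-week-old C57BL/6J mice were profiled on MoGene 2.0 arrays. The wild-type cells carried floxed Glut1 alleles (Glut1 fl/fl) without Cre, and the Glut1-deficient cells came from Glut1 fl/fl mice with Cre driven by the keratin 14 promoter (K14 Cre), which is active in basal keratinocytes. Both genotypes thus carried the floxed alleles, and no group with Cre alone was profiled. Each genotype had 4 mice. The cells grew in keratinocyte serum-free medium with 0.05 mM calcium chloride, hydrocortisone, EGF, pituitary extract and insulin, a low-calcium medium of the kind used to keep keratinocytes basal-like. They were reseeded at equal number after 3 days and lysed on the next day. Each genotype had 2 arrays, and each array held the RNA of 2 plates, which pools animals. The wild-type arrays came from lysates of 1500000 cells each and the Glut1-deficient arrays from 1000000 cells each, so the amount of input and the genotype cannot be told apart.

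Ceramide synthesis starts when serine palmitoyltransferase joins serine to palmitoyl-CoA, and the product is reduced, acylated by a ceramide synthase and desaturated or hydroxylated. In the upper epidermis, ceramides with very long omega-hydroxylated acyl chains are esterified with linoleic acid, packed as glucosylceramide into lamellar granules, secreted, oxidised by lipoxygenases and attached to the cornified envelope. Inherited defects of many of these genes, among them ABCA12, ALOX12B, ALOXE3, PNPLA1, CERS3 and SDR9C7, cause ichthyosis in people.

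Values are log2 intensities per row after RMA, which sets all arrays to a common distribution, so differences are relative to the other genes. The array medians over all rows lay between 4.07 and 4.11. Slc2a1, the gene of Glut1, had 2 rows. The brighter read 11.13 and 11.05 in wild type and 11.01 and 11.01 in Glut1-deficient cells, a log2 fold change of -0.07 (interval -0.30 to 0.15, limma adjusted p = 0.675). The dimmer read 5.18 and 5.09 against 4.80 and 4.44, a log2 fold change of -0.52 with groups that did not overlap (limma over all rows, unadjusted p = 0.0256, adjusted p = 0.247). Since neither the deleted part of the gene nor the place of the probes is given in the sources used here, the rows do not check the labels. The 3 brightest of 9 basal keratinocyte markers, Krt14, Perp and Dsp, were bright on all arrays, Krt14 between 12.15 and 12.56. Krt15 was dim, between 2.67 and 3.27. Markers of other cells were also present. The summed linear intensity of 11 fibroblast markers was 601 to 707 on the wild-type arrays and 1412 to 2670 on the Glut1-deficient arrays, and that of 12 melanocyte markers was 448 to 543 and 1066 to 1139. In bulk RNA, fewer cells of a type and less RNA per cell cannot be told apart.

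In Glut1-deficient keratinocytes the lipid transporter gene Abca12, the lipoxygenase gene Aloxe3, the lipase gene Lipm and the serine palmitoyltransferase subunit gene Sptlc3 rose, between 2.01-fold and 4.56-fold. These were 4 of the 45 members, and the other 41 did not pass in either direction (limma, Benjamini-Hochberg adjusted p under 0.05 over 22180 genes). Over all genes 2.84% passed by the same rule, 1.79% upwards and 1.05% downwards. At an unadjusted p under 0.05 in limma, 18 members were higher, where 11% of all genes were, and 1 was lower, where 11.2% were. Both Glut1-deficient arrays lay above both wild-type arrays for 29 members (25.5% of all genes) and below them for 6 (27.7% of all genes), and the groups overlapped for 10. A positive fold change was found for 36 members (48.4% of all genes). The median log2 fold change was 0.20 over the members and -0.007 over all genes. Against the wild-type mean, the members' median was 0.21 and 0.18 on the Glut1-deficient arrays. The number of arrays limits these calls. With any 1 array left out, or with all 41345 rows tested, limma called 0 members and also 0 of all genes or rows, so these settings say nothing particular to the members. Under a variance trend with intensity 15 members rose, where 6.06% of all genes did (limma).

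**Figure D1:**
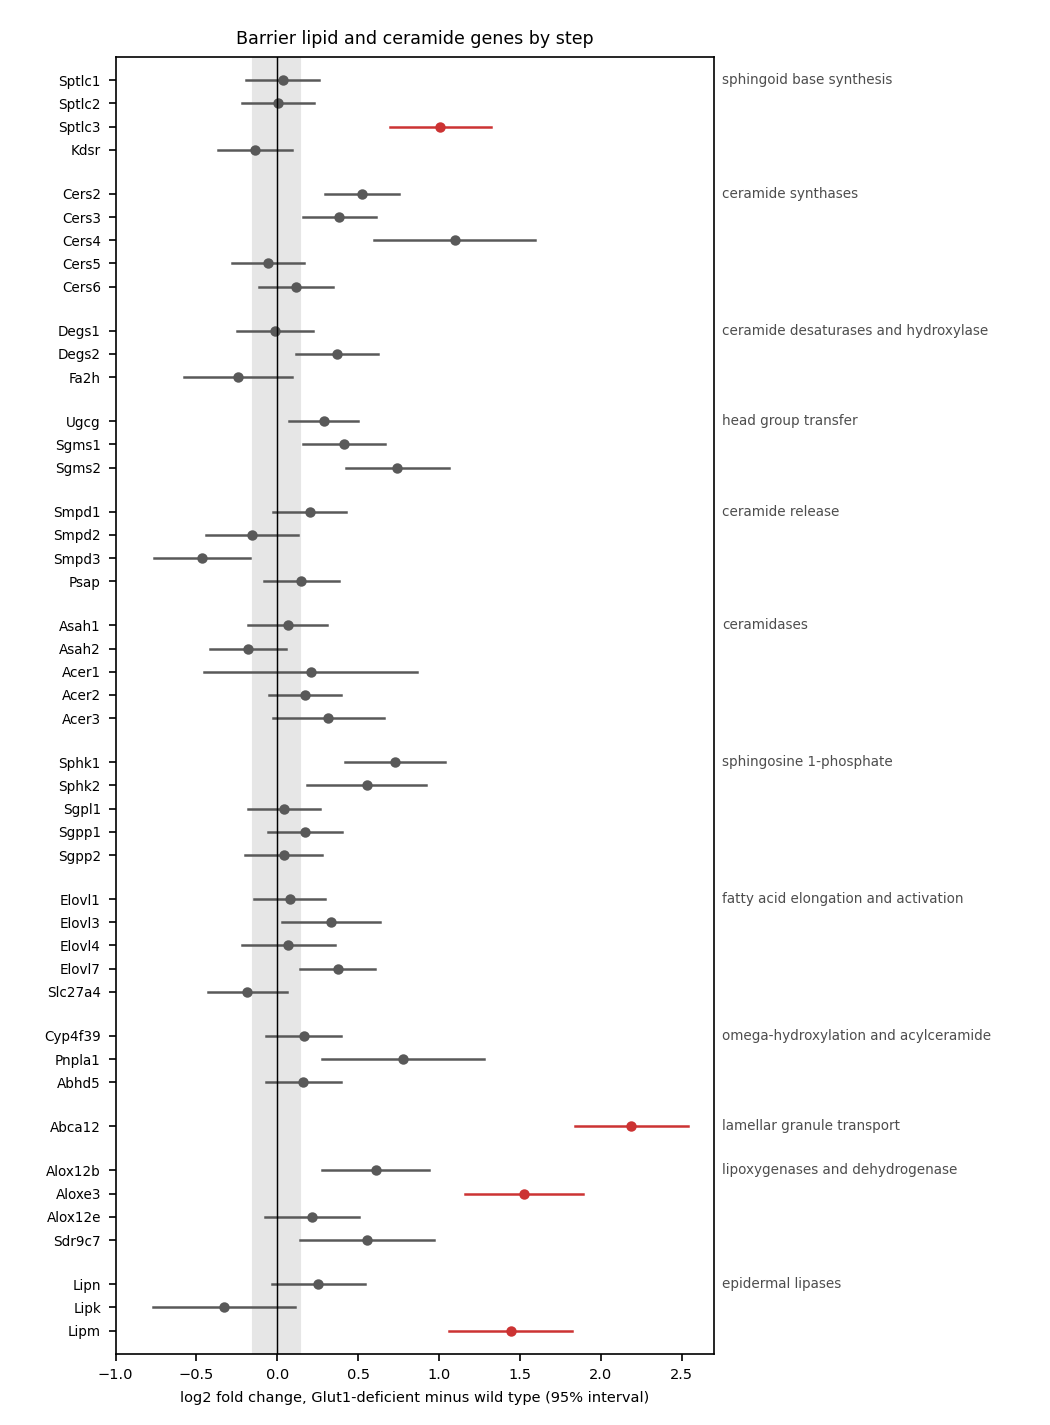
Log2 fold change (Glut1-deficient minus wild type) of the 45 members with its 95% interval from limma, grouped by step from the sphingoid base to the lipases. Red marks the 4 genes that rose, and the grey band holds the middle 50% of all 22180 genes (-0.15 to 0.14). The interval of Abca12 (1.84 to 2.54) lies farthest to the right, that of Cers4, which did not pass, spans 0.60 to 1.59, and that of Smpd3 lies wholly below 0.

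Abca12 encodes the lipid transporter that loads glucosylceramides into lamellar granules. Its row read 8.44 and 8.65 on the wild-type arrays and 10.87 and 10.61 on the Glut1-deficient arrays. The groups were separated by far more than the spread within either. The log2 fold change was 2.19 (SE 0.135, 95% interval 1.84 to 2.54, limma adjusted p = 0.0129), a 4.56-fold rise and the largest among the members. With each array left out in turn it stayed between 2.06 and 2.32, with adjusted p between 0.0685 and 0.212.

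Aloxe3 encodes the epidermal lipoxygenase that isomerises the hydroperoxide made from the linoleate of acylceramides. It read 5.32 and 5.08 in wild type and 6.86 and 6.58 in Glut1-deficient cells. Neither Glut1-deficient value came near the wild-type ones. The log2 fold change was 1.53 (SE 0.142, interval 1.16 to 1.89, limma adjusted p = 0.0211), or 2.88-fold, and 1.39 to 1.66 with 1 array left out.

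Lipm, which encodes a lipase of the granular keratinocyte, read 5.47 and 5.64 in wild type and 7.17 and 6.82 in Glut1-deficient cells. Its 2 groups were clearly apart, although the Glut1-deficient arrays differed more between themselves than the wild-type arrays did. The log2 fold change was 1.44 (SE 0.148, interval 1.06 to 1.82, limma adjusted p = 0.0249), or 2.72-fold, and 1.27 to 1.62 with 1 array left out.

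Sptlc3 encodes a catalytic subunit of serine palmitoyltransferase with a broader choice of acyl-CoA than Sptlc2. It read 3.77 and 3.79 in wild type and 4.65 and 4.93 in Glut1-deficient cells. The wild-type arrays were nearly equal, and both Glut1-deficient arrays were higher. The log2 fold change was 1.01 (SE 0.121, interval 0.70 to 1.32, limma adjusted p = 0.0318), or 2.01-fold, and 0.87 to 1.15 with 1 array left out. Its mean over the arrays was 4.28, below the median level of all genes (4.76).

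Promoter windows of RefSeq (GRCm38.p6) were at hand for 39 of the 45 members, in 56 windows of 300 bases. Aloxe3, Asah1, Elovl3, Fa2h, Lipk and Smpd3 had none. The 250 bases before the start are shown for Abca12, Lipm and Sptlc3, since these rose together, 5′ to 3′ on the strand of the gene. Abca12 lies at chr1:71414911-71415160 (minus strand), Lipm at chr19:34100693-34100942 (plus strand) and Sptlc3 at chr2:139493663-139493912 (plus strand). Capitals mark a match to any of the motifs searched, namely AP-1 (TGANTCA), the composite site of C/EBP and ATF factors (TGATGNAA), grainyhead (AACNGGTT), the nuclear receptor half-site (AGGTCA) and the E-box (CACGTG), on both strands.
Abca12: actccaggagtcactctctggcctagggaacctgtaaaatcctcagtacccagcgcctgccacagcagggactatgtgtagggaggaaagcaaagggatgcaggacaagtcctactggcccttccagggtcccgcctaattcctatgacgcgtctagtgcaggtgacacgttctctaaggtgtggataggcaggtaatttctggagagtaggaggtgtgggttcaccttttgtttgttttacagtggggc
Lipm: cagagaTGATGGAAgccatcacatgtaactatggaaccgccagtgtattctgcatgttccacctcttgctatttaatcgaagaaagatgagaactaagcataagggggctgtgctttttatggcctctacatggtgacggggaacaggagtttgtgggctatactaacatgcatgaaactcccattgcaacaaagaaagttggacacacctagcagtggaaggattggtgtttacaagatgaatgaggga
Sptlc3: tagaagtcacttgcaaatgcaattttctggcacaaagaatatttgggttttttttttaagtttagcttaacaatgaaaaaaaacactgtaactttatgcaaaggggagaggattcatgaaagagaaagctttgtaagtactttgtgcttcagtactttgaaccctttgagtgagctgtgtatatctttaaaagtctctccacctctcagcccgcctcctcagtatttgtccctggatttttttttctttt
The only match among these 3 upstream stretches was a C/EBP-ATF composite motif 244 bases before the start of Lipm. That motif was found in 3 of the 56 member windows (Lipm, Sgms2 and Smpd1) and in 3.97% of the 32851 windows of the table. The E-box was in 9 of the 56 windows, of 8 genes (Cers2, Cers6, Degs1, Elovl4, Sgms2, Sgpp2, Smpd2 and Sphk1), and in 7.15% of all windows. The nuclear receptor half-site was in 14 windows of 11 genes (16.3% of all windows), AP-1 in 9 windows of 7 genes (7.81%) and the grainyhead motif in 1 window, of Sgms1 (2.09%). Windows of the same gene can overlap, and Sgms2 alone had 6, so the window counts are not independent. A match describes the letters only.

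Of the 4 genes of sphingoid base synthesis, 1 passed the test, the subunit gene Sptlc3. Sptlc1, the subunit shared by all forms of the enzyme, read 8.14 and 8.06 in wild type and 8.15 and 8.11 in Glut1-deficient cells. Sptlc2, the other catalytic subunit, read 10.50 and 10.56 against 10.51 and 10.56. The groups overlapped for both, with 95% intervals of the log2 fold change of -0.19 to 0.26 for Sptlc1 and -0.22 to 0.23 for Sptlc2, which exclude a change of the size seen for Sptlc3. Whether Sptlc3 differed from its paralogues in its response was not tested. Kdsr, the ketoreductase of the next reaction, was at -0.13 (interval -0.36 to 0.09, not past the test). Of the regulators of serine palmitoyltransferase outside the list, 0 of 4 passed (limma; 0 at an unadjusted p under 0.05), with Ormdl1, Ormdl2 and Ormdl3, its inhibitory subunits, between -0.12 and 0.0047 on the log2 scale and the small subunit Sptssb at 0.19.

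Of the 5 ceramide synthases, which attach acyl chains of different length, 0 passed. Positive fold changes at an unadjusted p under 0.05 in limma were found for 3 (11% of all genes). Cers4 read 5.02 and 4.99 in wild type and 6.37 and 5.83 in Glut1-deficient cells, a log2 fold change of 1.10 (SE 0.193, limma adjusted p = 0.0599). Both Glut1-deficient arrays were higher, with an SD of 0.387 between them. Cers2, the synthase of very long chains, read 8.65 and 8.72 against 9.24 and 9.18 (log2 fold change 0.53, limma adjusted p = 0.0559). A dimmer second row named Cers2 gave 5.64 and 5.98 against 5.90 and 5.77, with overlapping groups and a log2 fold change of 0.02, so the rows of Cers2 disagreed. Cers3, the epidermal synthase of ultra-long ceramides, read 8.71 and 8.73 against 9.06 and 9.14 (0.38, interval 0.16 to 0.61, limma adjusted p = 0.0943). The groups did not overlap for Cers2 (chosen row), Cers3 and Cers4, and each passed when the variance followed intensity (adjusted p = 0.00309, 0.00898 and 0.0107 in limma). Under that setting 6.06% of all genes rose, against 1.79% in the main test. Cers5 and Cers6, which prefer shorter chains, were at -0.06 and 0.12, with intervals that include 0.

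**Figure D2:**
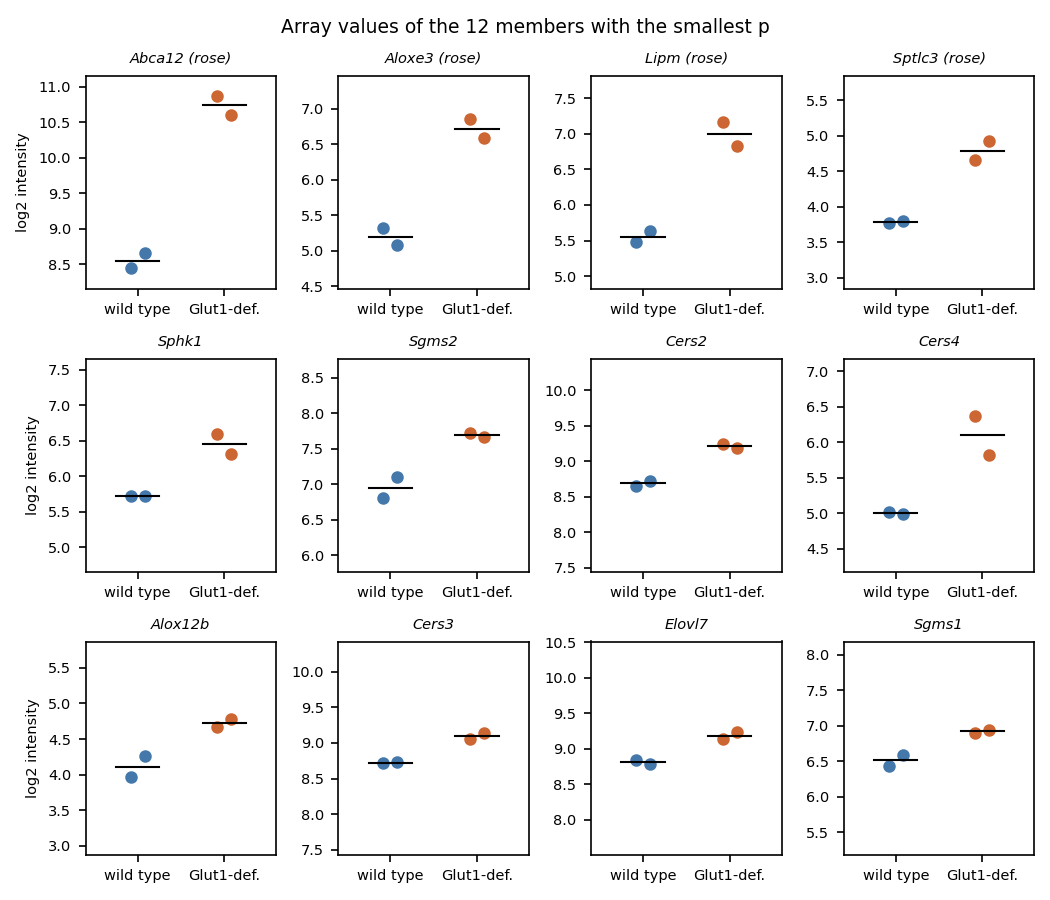
Log2 intensity on each of the 4 arrays for the 12 members with the smallest p, wild type in blue and Glut1-deficient in orange, with the mean of each pair as a bar; every panel spans 3 log2 units. Abca12, Aloxe3, Lipm and Sptlc3 passed the test. In the other 8 panels both Glut1-deficient arrays also lie above both wild-type arrays, as for 25.5% of all genes. The panels were picked by p on these same arrays, which favours separated groups, so the separation is no further evidence.

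The genes that finish or modify ceramide had fold changes of both signs. Degs1, the main dihydroceramide desaturase, did not differ beyond its spread (9.36 and 9.42 against 9.43 and 9.32, interval -0.25 to 0.22). Degs2, which also hydroxylates the base to make phytoceramide, read 4.58 and 4.74 against 5.02 and 5.03 (log2 fold change 0.37, limma adjusted p = 0.120). Fa2h, the fatty acid alpha-hydroxylase, was at -0.24 (interval -0.58 to 0.09). None of the 3 passed.

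All 3 genes that put a head group on ceramide had positive fold changes (48.4% of all genes), and none passed. Both Glut1-deficient arrays lay above both wild-type arrays for all 3, as for 25.5% of all genes. Sgms2, a sphingomyelin synthase of the plasma membrane, read 6.81 and 7.09 in wild type and 7.73 and 7.66 in Glut1-deficient cells (log2 fold change 0.74, SE 0.124, limma adjusted p = 0.0548). Sgms1, the Golgi sphingomyelin synthase, read 6.43 and 6.60 against 6.90 and 6.94 (0.41, adjusted p = 0.103 in limma). Ugcg, the glucosylceramide synthase that supplies the cargo of Abca12, had closely agreeing pairs at 7.41 and 7.40 against 7.70 and 7.69 (0.29, interval 0.07 to 0.50, adjusted p = 0.141 in limma). All 3 passed when the variance followed intensity (limma adjusted p between 0.00675 and 0.0466), a setting under which 6.06% of all genes rose.

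Of the 4 genes that return these products to ceramide, 2 had positive fold changes and 0 passed the test. Smpd3, a neutral sphingomyelinase, was the member with the lowest fold change. It read 4.75 and 4.84 in wild type and 4.21 and 4.44 in Glut1-deficient cells, a log2 fold change of -0.47 (interval -0.76 to -0.17, limma unadjusted p = 0.00983, adjusted p = 0.107). Smpd1, the acid sphingomyelinase, was at 0.20 in the brighter of its 2 rows and 0.35 in the dimmer, Smpd2 at -0.16, and Psap, the precursor of the saposins that assist lysosomal glucosylceramide hydrolysis, at 0.15. The intervals of Smpd2, Psap and the brighter Smpd1 row include 0, and the dimmer Smpd1 row had an unadjusted p of 0.0170 in limma over all rows.

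Of the 5 ceramidases, which split ceramide into sphingosine and a fatty acid, 0 passed (limma; 0 also at an unadjusted p under 0.05). The acid ceramidase Asah1 was at 0.06, Asah2 at -0.18 and Acer2 at 0.17. Acer3, an alkaline ceramidase, read 6.86 and 6.73 in wild type and 6.96 and 7.26 in Glut1-deficient cells (log2 fold change 0.31, interval -0.03 to 0.66). Acer1, the ceramidase of differentiated epidermis, read 3.29 and 3.32 in wild type and 3.89 and 3.13 in Glut1-deficient cells. Its Glut1-deficient arrays lay on opposite sides of the wild-type ones, and the interval of -0.45 to 0.86 is the widest of the list.

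The kinases that make sphingosine 1-phosphate had higher means in Glut1-deficient cells without passing the test, and the lyase and phosphatases among the members had fold changes of 0.04 to 0.17. Sphk1 read 5.73 and 5.73 in wild type and 6.59 and 6.32 in Glut1-deficient cells (log2 fold change 0.73, SE 0.120, limma adjusted p = 0.0539). Sphk2 read 7.43 and 7.19 against 8.0 and 7.72 (0.55, adjusted p = 0.114 in limma). Neither passed, and the groups overlapped in neither. Both passed with the variance following intensity (limma adjusted p = 0.0110 and 0.0287), where 6.06% of all genes rose. The lyase Sgpl1 was at 0.04, the phosphatase Sgpp1 at 0.17 and Sgpp2 at 0.04, and their intervals include 0; a dimmer second row of Sgpp1 was at 0.41. Of 11 genes of sphingosine 1-phosphate export, reception and breakdown outside the list, 0 passed. At an unadjusted p under 0.05, 2 were higher, near the 11% of all genes. They were the exporter Spns2 (0.42, limma adjusted p = 0.0986) and the receptor S1pr2 (0.23, adjusted p = 0.206 in limma). Plpp3, a lipid phosphate phosphatase of the plasma membrane, read 5.99 and 6.37 in wild type and 6.75 and 6.47 in Glut1-deficient cells (log2 fold change 0.43, interval -0.01 to 0.86, unadjusted p = 0.0527 in limma), with groups that did not overlap.

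**Figure D3:**
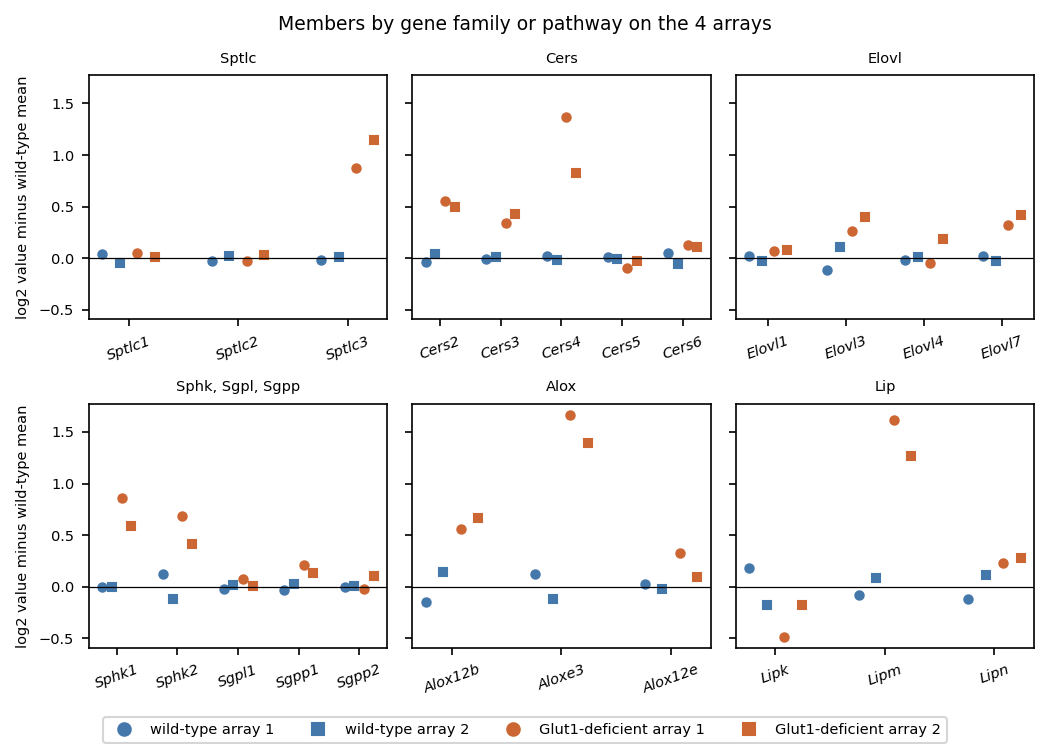
Log2 value minus the wild-type mean of the gene on each array, for members grouped by gene family or pathway (circles for array 1, squares for array 2, blue for wild type, orange for Glut1-deficient). Sptlc3, Aloxe3 and Lipm stand above their relatives, and in the kinase panel Sphk1 and Sphk2 lie above Sgpl1, Sgpp1 and Sgpp2.

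Elongation and activation of the acyl chain had 4 positive fold changes of 5 (48.4% of all genes), and 0 genes passed. Elovl7, an elongase of saturated and unsaturated long chains, read 8.84 and 8.79 in wild type and 9.14 and 9.23 in Glut1-deficient cells (log2 fold change 0.37, interval 0.14 to 0.61, limma adjusted p = 0.103). Elovl4, the elongase of ultra-long chains, read 8.25 and 8.28 against 8.22 and 8.45, with overlapping groups (0.07), and Elovl1 was at 0.08. Elovl3, known from sebaceous and hair follicle cells, was below the first quartile of gene levels at 2.64 and 2.86 against 3.01 and 3.15 (0.33, limma unadjusted p = 0.0376, adjusted p = 0.196). Slc27a4, the acyl-CoA synthetase FATP4, was at -0.19 (interval -0.43 to 0.06). A list of 19 other tested genes of very-long-chain fatty acid metabolism had a median of -0.17, 11 negative fold changes, 1 fall and 7 lower at an unadjusted p under 0.05 in limma. Of all genes, 1.05% fell and 11.2% were lower at that level. The gene that fell was Hacd2, a dehydratase of the elongation cycle, at 10.44 and 10.39 in wild type and 9.68 and 9.81 in Glut1-deficient cells (log2 fold change -0.67, limma adjusted p = 0.0419). Its paralogues Hacd4 (-0.46, limma adjusted p = 0.0809), Hacd3 (-0.29) and Hacd1 (0.05) did not pass. The reductase Tecr (-0.38), the elongase Elovl6 (-0.28) and the desaturase Scd1 (-0.34) did not pass either.

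Omega-hydroxylation and acylceramide formation had 3 positive fold changes of 3 (48.4% of all genes), with no call. Pnpla1, the transacylase that esterifies ceramide with linoleate, read 4.48 and 4.83 in wild type and 5.64 and 5.22 in Glut1-deficient cells (log2 fold change 0.78, SE 0.194, limma adjusted p = 0.109). Its pairs were each wide, and a dimmer row named Pnpla1 was at 0.07. Cyp4f39, the omega-hydroxylase, was at 0.16 (interval -0.07 to 0.40), and Abhd5, the cofactor of Pnpla1, at 0.16 (interval -0.07 to 0.39).

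After secretion, the linoleate of acylceramide is oxidised in turn by the products of Alox12b, Aloxe3 and Sdr9c7. All had positive fold changes (48.4% of all genes), and Aloxe3 rose. Alox12b read 3.97 and 4.26 in wild type and 4.67 and 4.78 in Glut1-deficient cells (log2 fold change 0.61, SE 0.128, limma adjusted p = 0.0823), and Sdr9c7 read 4.20 and 3.78 against 4.50 and 4.59 (0.55, adjusted p = 0.142 in limma). Neither group pair overlapped. Alox12e, another epidermal lipoxygenase gene of the mouse, lay below the first quartile of gene levels and had a log2 fold change of 0.21 (interval -0.08 to 0.50). The other lipoxygenase genes of the wider list, Alox12, Alox15, Alox8 and Alox5, lay between -0.20 and -0.03, and none passed. Among the lipases, Lipk was at -0.33 and Lipn at 0.25, both dimmer than the median gene and with intervals that include 0, beside the rise of Lipm. Nipal4, another ichthyosis gene outside the list, read 9.14 and 9.34 against 9.63 and 9.74 (0.45, adjusted p = 0.107 in limma). It is 1 of 35 other barrier lipid and envelope genes tested. At an unadjusted p under 0.05 in limma, 6 of these were higher (11% of all genes) and 4 lower (11.2%). The lower ones were Ephx1 (-0.58), Ephx2 (-0.55), Abca1 (-0.60) and Tgm1 (-0.45), and none of them passed.

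The wider pathway had a median near that of all genes. Among its 85 genes on the arrays there were 1 rise and 2 falls, with 82 short of the threshold, against 1.79% and 1.05% of all genes, with a median log2 fold change of -0.01. Sult2b1, the sulfotransferase that makes cholesterol sulfate in the granular layer, read 9.03 and 9.08 in wild type and 9.64 and 9.63 in Glut1-deficient cells and rose by 0.58 (SE 0.0843, limma adjusted p = 0.0444). St3gal5, the synthase of the ganglioside GM3, read 7.16 and 6.98 against 6.05 and 6.31 and fell by 0.89 (adjusted p = 0.0438 in limma), and Hacd2 was the other fall. B4galt6, a lactosylceramide synthase upstream of St3gal5, was at -0.87 (limma adjusted p = 0.0540) and its paralogue B4galt5 at 0.31, neither past the test. The difference between the members and these 85 genes was not tested.

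Regulators and markers of the differentiating keratinocyte were read on the same arrays. Of 23 transcription factors of the barrier, Klf4 (log2 fold change 0.88), Ovol1 (1.01), Cebpb (0.92) and Prdm1 (0.97) rose and Maf fell by 1.53. These were 5 of 23 past limma's test, where 2.84% of all genes passed. This list, like the others, was chosen with earlier results of these data known, so its share is no test of the list. At an unadjusted p under 0.05 in limma, 7 were higher (11% of all genes) and 3 lower (11.2%). The lower ones were Maf, Rxra (-0.30) and Trp63 (-0.29). The grainyhead factors Grhl1 and Grhl3 were at 0.26 and 0.24, and Ppard, the PPAR of keratinocytes, at -0.14, and these 3 did not pass. Among 22 differentiation markers, Cdsn (2.46), Sbsn (0.98), Dsg1b (0.75), Spink5 (1.38) and Asprv1 (0.69) rose on the log2 scale. Ivl, the cornified envelope protein involucrin, read 7.99 and 7.88 in wild type and 6.19 and 6.53 in Glut1-deficient cells and fell by 1.58 (limma adjusted p = 0.0208), and 16 markers did not pass. The early suprabasal keratins Krt1 (0.34, limma unadjusted p = 0.108) and Krt10 (-0.04) and the late markers Lor (0.24) and Flg (0.14) were not called. Dsg1a was at -0.59, and Tgm1, the envelope transglutaminase of the wider list, at -0.45, both at an unadjusted p under 0.05 and neither past the test (limma adjusted p = 0.193 and 0.223). Rptn (0.78), Klk7 (0.52), Klk5 (0.42), Dmkn (0.33) and Hrnr (0.33) were higher at that level without passing. In all, 10 of the 22 differentiation markers were higher at an unadjusted p under 0.05 in limma (11% of all genes) and 2 were lower (11.2%).

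**Figure D4:**
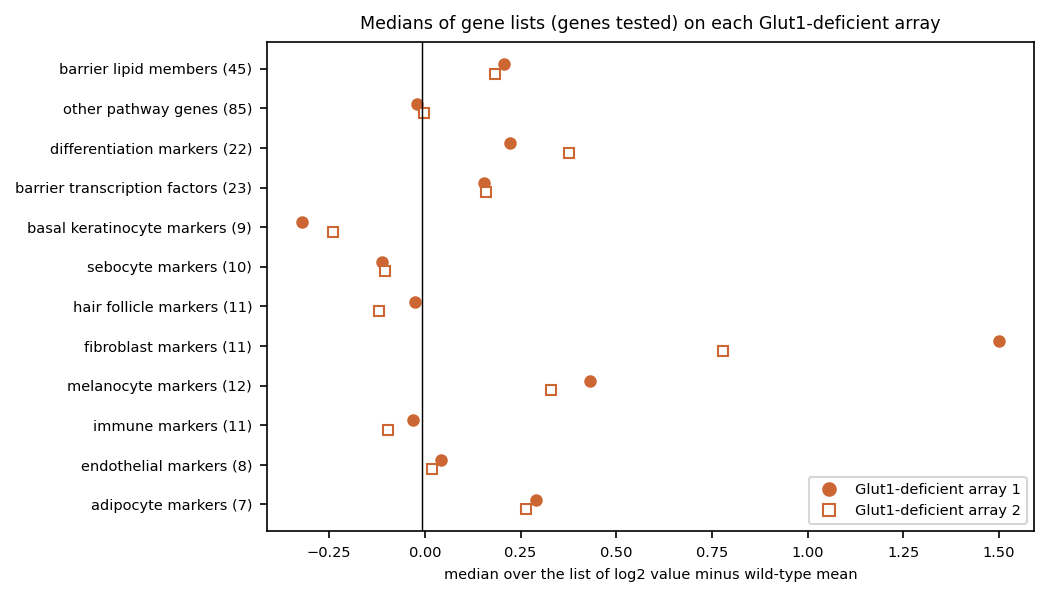
Median over each list of the log2 value minus the wild-type mean, on Glut1-deficient array 1 (filled circles) and array 2 (open squares), with the number of genes tested in brackets; the line marks the median of all genes. The barrier lipid members lie at 0.21 and 0.18, nearly equal on the arrays, and the fibroblast markers at 1.50 and 0.78.

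Markers of other cells moved on the same arrays. All 11 fibroblast markers were higher on average in Glut1-deficient cells (48.4% of all genes), with a median of 1.08. Both Glut1-deficient arrays lay above both wild-type arrays for 10 of 11 (25.5% of all genes). Of the 11, 0 passed limma's test and 10 were higher at an unadjusted p under 0.05 (11% of all genes). Each of the 11 was higher on the first Glut1-deficient array than on the second. Of the members, 22 of 45 were higher on array 1 and 23 on array 2. Abca12, Aloxe3, Lipm, Cers4 and Sphk1 were higher on array 1 and Sptlc3, Cers3, Elovl7 and Alox12b on array 2. Of 12 melanocyte markers 5 rose, where 1.79% of all genes did, among them Dct (1.77), Tyrp1 (1.31) and Pmel (1.69). The median was 0.34, with 11 positive fold changes (48.4% of all genes). Among the 7 that did not pass, Mitf was at 0.29, Kit at 0.20, Tyr at 0.05 and Sox10 at -0.14. Of 10 sebocyte markers 1 rose, Cidea (0.97), 7 were dimmer than the median gene, the median was -0.03 and the summed linear intensity was 249 to 253 in wild type and 270 to 279 in Glut1-deficient cells. Adipocyte markers summed to 210 to 232 and 349 to 427, with Fabp4 risen (1.36) and Adipoq at 0.15. The brightest of these 7 markers was Lpl, at 7.19 and 6.99 in wild type and 8.16 and 7.83 in Glut1-deficient cells. It did not pass (limma adjusted p = 0.0533). Hair follicle (median -0.01, sums 1307 to 1315 and 1359 to 1663), immune (-0.07, 445 to 447 and 441 to 443) and endothelial markers (0.04, 191 to 200 and 324 to 345) completed the lists. Of the 8 endothelial markers Kdr rose by 2.38, while Pecam1 (-0.35) and Egfl7 (-0.42) were lower at an unadjusted p under 0.05 in limma. Basal keratinocyte markers had a median of -0.29 with sums of 19534 to 20077 and 17262 to 17945. Of these 9 markers 0 passed, 5 were lower at an unadjusted p under 0.05 in limma (11.2% of all genes) and 2 were higher (11%). The lower ones were Krt14 (-0.37), Trp63 (-0.29), Itga6 (-0.31), Itgb4 (-0.57) and Col17a1 (-0.73). The higher ones were Dst (0.57) and Perp (0.30). Many members outside the cornifying steps, such as Sphk1, Cers2 and Cers4, are expressed by other cell types too. The part of these cells in the members' differences was not tested.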

How the data were processed

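RNA of 2 pooled cultures per genotype was hybridised to MoGene 2.0 arrays. The deposited log2 values, 1 per transcript cluster, came from RMA in the authors' hands, and the submitters' processing notes also name Affymetrix Expression Console, with versions, settings and genome build not given in the sources used here. Of 41345 rows, 23521 carried exactly 1 gene symbol in the platform annotation and gave 22180 genes. Differences (Glut1-deficient minus wild type) were fitted over all genes with limma 3.58.1 in R 4.3.3 (lmFit, eBayes without trend, 2 residual degrees of freedom and a prior worth 2.95), two-sided, with Benjamini-Hochberg adjustment and a threshold of 0.05. "Rose" and "fell" mean past that test. A permutation of 2 against 2 arrays allows no two-sided exact p below 0.333, so none was run. The p-values rest on the spread from pool to pool, which may be partly technical. No detection calls or hybridisation batches were used here.

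The members and lists were chosen with earlier results of these data known. Every member could be named. Values on each array are given for those that passed and for the member of each step with the smallest p, beside others a sentence turns on. Of the wider pathway lists, the rule named genes that passed and otherwise the 3 per list with the smallest p, of regulators and differentiation markers those that passed, and of cell type lists up to 3 with the highest mean. Other genes named from these lists (among them Ormdl1, Ormdl2, Ormdl3, B4galt5, Tecr, Elovl6, Scd1, Nipal4, the Alox genes, Grhl1, Grhl3, Ppard, Krt1, Krt10, Lor, Flg, Dsg1a, Tgm1, Dct, Pmel, Cidea, Fabp4, Adipoq and Kdr) were chosen after their values were seen. The same holds for Ephx1, Ephx2, Abca1, Hacd1, Hacd3, Hacd4, Rxra, Trp63, Itga6, Itgb4, Col17a1 and Dst. Listed genes without a row of 1 symbol were not tested. Promoters were read from RefSeq windows of GRCm38.p6. The planned comparison of protein sequences was not run. Same-numbered arrays did not deviate together (correlation of deviations -0.03 over genes), so the numbers were not taken as pairs. Alternatives were variance moderation, normalization, filters on dim genes, the row per gene, every row tested, left-out arrays, the replicate block and the threshold. Figures used matplotlib 3.10.9.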

Additional observations from a re-analysis of the deposited data

How the results depend on the processing

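The members' calls depended on how the variance was estimated and how many rows were tested. A gene's fold change is fixed under the variance settings, the filters on dim genes, every row tested, the replicate block and the threshold. Only another normalization, another choice of rows or a left-out array could turn a sign. Against 4 rises (1.79% of all genes), 15 members rose with an intensity trend (6.06%), also 15 with robust estimation (6.17%), 14 of 33 among genes above the median level (10.9%), 8 of 42 above the 25th percentile (3.98%) and 10 at an adjusted p under 0.10 (4.62%). The count was 0 with a plain pooled variance, with every row tested, with the replicate number as a block, at an adjusted p under 0.01 and with any 1 array left out (0 to 0), where the lone array was assumed to vary like the other pair. Of all genes, the plain variance, the test of every row and each left-out array also called 0 (2948 to 6694 at an unadjusted p under 0.05), the block called 32 rises and 5 falls and the threshold of 0.01 called 4, so a count of 0 is not particular to the members. It was 4 or 6 under the other settings, and 0 members fell under any. In the block, the adjusted p of limma was 0.0521 for Abca12, 0.0518 for Aloxe3, 0.0711 for Lipm and 0.0716 for Sptlc3. The members' median was 0.172 above the median level and 0.171 above the 25th percentile, against 0.200, and 0.184 to 0.206 with 1 array left out. Of the other pathway genes, 5 rose with the trend (5 if robust), 5 above the median level, 2 above the 25th percentile and 4 at 0.10, against 1. The falls, 2 in the main setting, were 10, 11, 9 of 59, 5 of 78 and 7 under those settings (5.98%, 6.14%, 10.0%, 2.90% and 3.75% of all genes) and 4 after median centring (1.16%). Both counts were 0 with the plain variance, every row, the block, a threshold of 0.01 and any array left out (0 to 0). Signs turned for values near 0. Degs1 was at 0.013 after cyclic loess, and with 1 array left out the ranges were -0.0063 to 0.0744 for Sptlc1, -0.022 to 0.035 for Sptlc2, -0.0661 to 0.0398 for Degs1, -0.0078 to 0.135 for Asah1, -0.173 to 0.584 for Acer1, -0.0255 to 0.104 for Sgpp2 and -0.0472 to 0.184 for Elovl4. Slc2a1 ranged from -0.115 to -0.035 with 1 array left out. The mean of both rows moved Slc2a1 from -0.07 to -0.30 (limma unadjusted p = 0.0352, adjusted p = 0.192), Cers2 from 0.53 to 0.27, Pnpla1 from 0.78 to 0.43, Sgpp1 from 0.17 to 0.29 and Smpd1 from 0.20 to 0.28. Apart from the numbers tested and the residual degrees of freedom, causes were not tested.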
